A study of Mus musculus with 10 samples.

Results

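Cholesterol metabolism was followed here through 34 genes that make, sense, move, store or remove the sterol. The genes were chosen by name for their roles: 18 enzymes from acetoacetyl-CoA to cholesterol, 5 genes of sterol regulatory element binding protein (SREBP) control, 2 liver X receptors (LXR), 4 genes of efflux and uptake, 3 of transport inside the cell and 2 of storage and elimination. Earlier results of these data were known when they were chosen. All 34 were among the 24411 genes listed in the deposited count table, and all 34 were among the 13287 genes with enough counts to be tested. The samples were bulk RNA-seq libraries of mouse lumbar spinal cord, 5 from mice given paclitaxel, a microtubule-stabilising chemotherapy drug that can cause painful neuropathy, and 5 from mice given vehicle. Each library was made from messenger RNA. The labels give the tissue, the treatment and a replicate number, and do not give the strain, sex, age, dose, schedule or time after treatment. They also do not say whether the replicates were separate animals. The p-values set the difference between the groups against the spread between these samples, which may be technical.

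The central nervous system makes nearly all of its own cholesterol, since lipoproteins of the blood do not cross its barrier. Most of that cholesterol sits in myelin, and in the adult cord synthesis goes on in oligodendrocytes and astrocytes. When sterol in the endoplasmic reticulum is low, SCAP escorts SREBP to the Golgi, where it is cut and released to switch on the genes of synthesis. When sterol is high, INSIG proteins hold SCAP and SREBP back. Oxysterols that build up with excess sterol activate the liver X receptors, which switch on genes of efflux such as Abca1, Abcg1 and Apoe. Synthesis and efflux genes are therefore controlled by opposite sterol signals, and they were set against each other here.

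Promoters of 3 synthesis enzymes and of 1 efflux transporter are shown because each of the 3 enzymes had its lowest level of the 10 libraries in paclitaxel replicate 3, described further on, while the transporter had its highest level there. The sequences are the RefSeq windows from 250 bases before to 50 bases after the annotated start, read in the direction of transcription, on GRCm38.p6. Capitals mark matches, on either strand, to the sterol regulatory element TCACNCCAC, the NF-Y box CCAAT or the E-box, which reads CACGTG on each strand.
Hmgcs1, chr13:119690101-119690400, plus strand: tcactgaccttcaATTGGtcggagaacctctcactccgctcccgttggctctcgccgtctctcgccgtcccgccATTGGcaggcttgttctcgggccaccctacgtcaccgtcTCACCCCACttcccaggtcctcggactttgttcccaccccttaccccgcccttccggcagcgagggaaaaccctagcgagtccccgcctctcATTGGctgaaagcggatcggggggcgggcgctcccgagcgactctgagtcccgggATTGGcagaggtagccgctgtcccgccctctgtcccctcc
Idi1, chr13:8885356-8885655, plus strand: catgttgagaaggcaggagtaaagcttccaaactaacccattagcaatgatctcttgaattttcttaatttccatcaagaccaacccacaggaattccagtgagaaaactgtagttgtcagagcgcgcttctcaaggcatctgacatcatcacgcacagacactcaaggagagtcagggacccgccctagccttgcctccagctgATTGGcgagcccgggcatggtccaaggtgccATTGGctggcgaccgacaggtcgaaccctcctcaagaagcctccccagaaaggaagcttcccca
Cyp51, chr5:4104648-4104947, minus strand: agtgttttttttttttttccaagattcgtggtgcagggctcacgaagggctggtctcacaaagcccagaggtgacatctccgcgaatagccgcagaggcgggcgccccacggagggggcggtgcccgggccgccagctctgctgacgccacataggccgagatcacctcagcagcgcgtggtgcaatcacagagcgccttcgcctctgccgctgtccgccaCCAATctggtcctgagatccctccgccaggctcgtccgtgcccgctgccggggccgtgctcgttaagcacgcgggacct
Abca1, chr4:53159846-53160145, minus strand: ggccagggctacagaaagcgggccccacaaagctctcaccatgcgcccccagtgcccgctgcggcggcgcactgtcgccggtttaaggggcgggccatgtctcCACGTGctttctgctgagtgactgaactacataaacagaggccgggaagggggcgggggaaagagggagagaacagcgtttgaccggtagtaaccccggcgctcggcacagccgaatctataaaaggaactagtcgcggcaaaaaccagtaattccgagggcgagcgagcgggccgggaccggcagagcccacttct
The Hmgcs1 window holds 1 sterol regulatory element, 137 bases before the start, and 4 NF-Y boxes. The Idi1 window holds 2 NF-Y boxes and the Cyp51 window 1. The Abca1 window holds 1 E-box, 147 bases before the start, and none of the other motifs.

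NF-Y binds beside SREBP at many sterol-responsive promoters. A window was given for 28 of the 34 genes. Of the 15 synthesis enzymes with a window, 14 had an NF-Y box in it, as had 7 of the other 13 members. Over all 27025 genes with a window, the share was 41.1%. Counted by window, since some genes have several, the share was 77.8% of 18 synthesis windows and 37.4% of all 32851 windows. The exact letters of the sterol regulatory element were in 1 member, Hmgcs1, and in 1.44% of all genes. The E-box was in 6 of the 28 members and in 8.09% of all genes. A direct repeat of AGGTCA with 4 free bases between, the element bound by liver X receptors, was in none of the 28 members and in 4 of all genes with a window. These are matches of letters within a short window and no evidence of binding.

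Libraries held between 3676259 and 5432072 counts after paclitaxel and between 4585899 and 7791594 after vehicle. Values are given as CPM (counts relative to the library's total), scaled between libraries by the trimmed mean of M-values. At these depths 3 counts correspond to 0.385 to 0.819 CPM, and all members but Nr1h3 stood well above that. By the quasi-likelihood test of edgeR, the background of calls at an adjusted p of 0.05 was 0%, or 0 of 13287 genes, with 806 genes, 6.07%, below 0.05 before adjustment. Of all genes tested, 50.9% had a fold change below 0, and in 1.09% the groups did not overlap. Neuron, oligodendrocyte and lumbar Hox markers were abundant in every library. No muscle marker of 5 exceeded 1.297 CPM in any library, and no adipocyte marker of 5 exceeded 0.348 CPM. Of 6 sensory ganglion markers, 4 (Scn10a, Trpv1, Mrgprd and Avil) stayed at or below 0.649 CPM, while Prph, which motor neurons also express, stood at 59.6 to 121 CPM and Isl1 at 1.57 to 3.27 CPM. Paclitaxel replicate 3 stood apart from the other 9 libraries in the cholesterol genes, so fold changes of members that rest on it are given with and without it. In bulk tissue, fewer cells of a type and less RNA per cell cannot be told apart.

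No cholesterol gene passed the test for a difference between paclitaxel and vehicle. Of the 34 members, 0 passed the adjusted threshold, against the background of 0% (also 0 with DESeq2 and with limma-voom), and 1, Pmvk, had an unadjusted p below 0.05, against 6.07% of all genes. The groups overlapped in all 34 members. Fold changes were below 0 in 27 members and above 0 in 7, against 50.9% of all genes tested below 0. The median log2 fold change was -0.05 against -0.003 over all genes tested. DESeq2's size factors, upper-quartile scaling and DESeq2 each left 24 below 0, and limma-voom with quality weights left 21. The direction rested on single libraries: without paclitaxel replicate 3, or without vehicle replicate 1, 19 of the 34 were below 0.

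**Figure D1:**
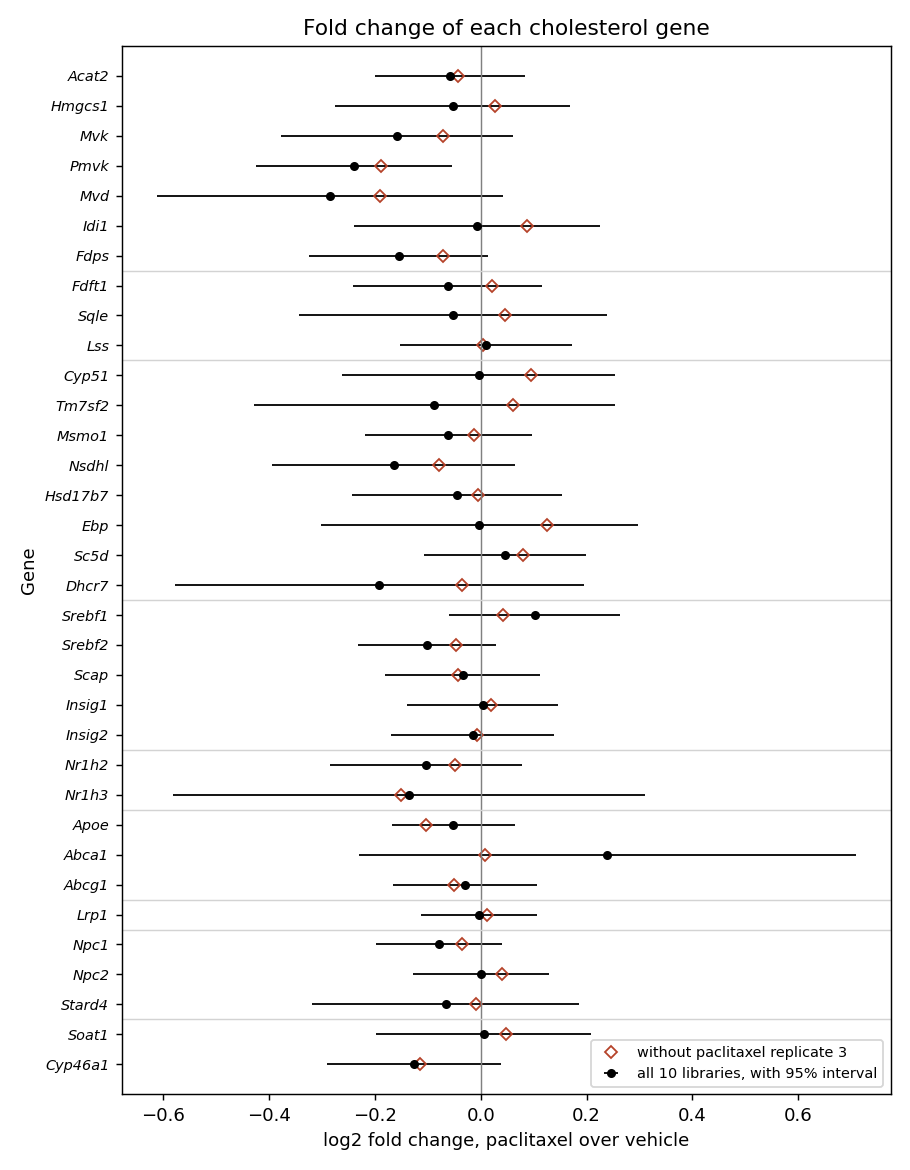
Log2 fold change of each cholesterol gene, paclitaxel over vehicle, on the x axis, with genes by role on the y axis; points are edgeR estimates and lines 95% intervals, for 5 libraries a group. Most points lie slightly left of 0, and only the interval of Pmvk, from -0.42 to -0.05, does not cross it.

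Levels per kilobase of transcript spanned a wide range among the members. The level was highest for Apoe, the main lipoprotein component secreted by astrocytes, at 1207 CPM per kb. Hmgcs1, which condenses acetyl-CoA units into HMG-CoA early in the mevalonate steps, followed at 151 CPM per kb. Next came Lrp1, an endocytic receptor for apolipoprotein E, at 65.8 CPM per kb and Insig1 at 65.7 CPM per kb, which are too close to be ordered. Among the 10 highest were 5 synthesis enzymes (Hmgcs1, Fdps, Msmo1, Idi1 and Cyp51). The lowest were Abca1 at 6.04, Soat1 at 3.46 and Nr1h3 at 1.81 CPM per kb.

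**Figure D2:**
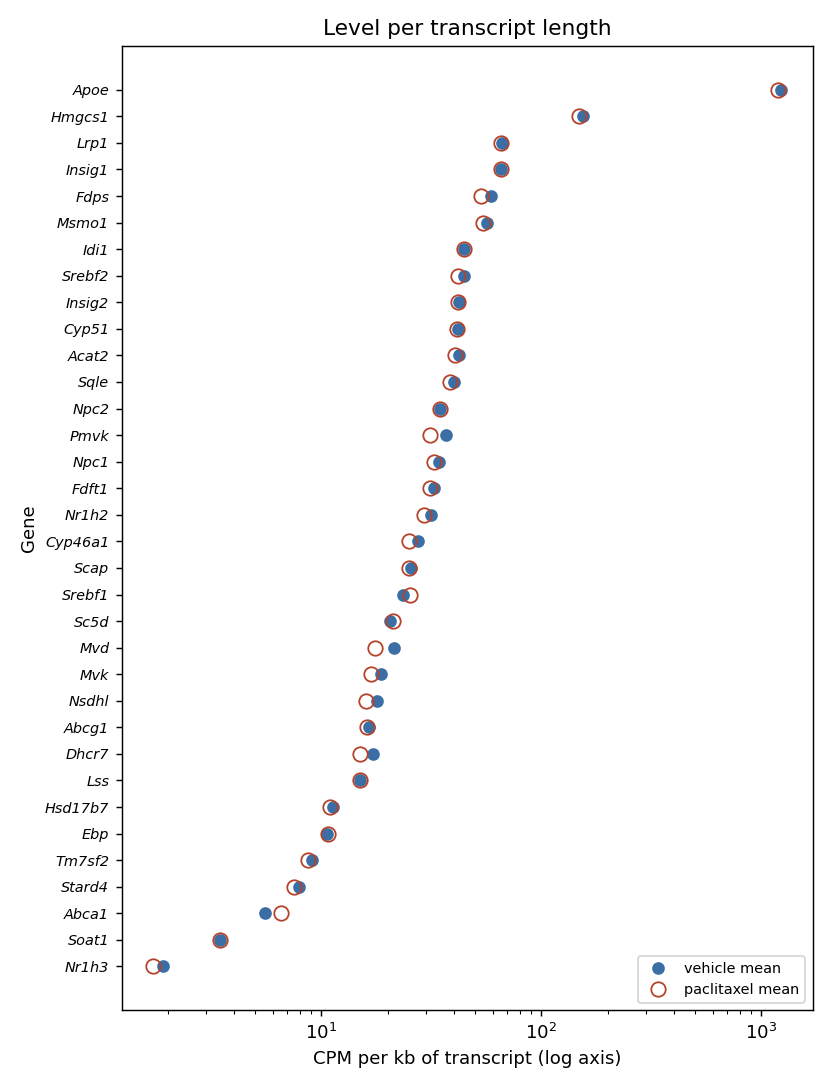
Level of each member per kilobase of transcript (CPM per kb, log axis) on the x axis, with genes ordered by level on the y axis and the means of the 5 vehicle and 5 paclitaxel libraries drawn separately. Apoe lies far to the right at 1207 CPM per kb, Nr1h3 far to the left at 1.81, and the means of the groups nearly coincide for most genes.

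The mevalonate enzymes turn acetyl-CoA units into the building blocks of isoprenoids and sterols. All 7 had fold changes below 0, against 50.9% of all genes tested. Their median log2 fold change was -0.16, and none passed the adjusted threshold. The direction was the same in all 7 under every scaling tried. Under limma-voom with quality weights 6 of the 7 were below 0, with Idi1 at 0.07 and a median of -0.11. Without paclitaxel replicate 3 Hmgcs1 and Idi1 were above 0 and the median was -0.07. Without vehicle replicate 1, 5 of the 7 were below 0. Pmvk (chr3:89454541-89469014), phosphomevalonate kinase, had the lowest p of the members. It read 31.6, 37.5, 31.6, 38.2 and 43.7 CPM in paclitaxel replicates 1 to 5 and 42.3, 43.1, 45.5, 39.7 and 45.2 CPM in vehicle replicates 1 to 5. Replicates 1 to 4 after paclitaxel were below all vehicle libraries, while replicate 5 lay within the vehicle range. The mean was 36.5 ± 5.07 CPM (SD, n = 5) after paclitaxel and 43.2 ± 2.38 CPM (SD, n = 5) after vehicle, a log2 fold change of -0.24 (SE 0.09, unadjusted p = 0.0136, adjusted p = 0.792, edgeR). The corresponding ratio was 0.847, with a 95% interval from 0.745 to 0.963. Without paclitaxel replicate 1 the unadjusted p was no longer below 0.05.

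Fdps makes farnesyl diphosphate, the branch point to sterols, dolichol and prenylated proteins. Its levels were 77.8, 77.6, 53.5, 70.1 and 69.2 CPM after paclitaxel and 82.3, 80.2, 74.4, 74.0 and 76.8 CPM after vehicle, in replicate order. Paclitaxel replicate 3 was the lowest of all 10 and the groups overlapped. On the log2 scale the difference was -0.16 (SE 0.08, unadjusted p = 0.0705, adjusted p = 0.80, edgeR), and -0.07 without that library. Hmgcs1 (chr13:119690351-119708260), whose promoter is printed above, read 573, 540.1, 386, 501 and 486 CPM after paclitaxel and 595, 538, 478, 482 and 486 CPM after vehicle. The highest value was in vehicle replicate 1 and the lowest in paclitaxel replicate 3, with the other libraries mixed between the groups. Paclitaxel over vehicle, its log2 fold change was -0.05 (95% interval from -0.28 to 0.17, SE 0.10), and 0.03 without paclitaxel replicate 3.

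Mvd (chr8:122433596-122443422), mevalonate diphosphate decarboxylase, had the largest fold change of the 18 enzymes and is described for that, chosen after its values were seen. Paclitaxel libraries gave 30.2, 43.4, 23.6, 30.8 and 29.0 CPM, and vehicle libraries 43.0, 44.9, 40.7, 31.2 and 32.7 CPM. Paclitaxel replicates 1, 3, 4 and 5 were below all vehicle libraries, and replicate 2 was near the top of the vehicle range. This gave a log2 fold change of -0.28 (SE 0.15, unadjusted p = 0.0827, adjusted p = 0.80, edgeR), and -0.19 without paclitaxel replicate 3. The remaining mevalonate enzymes had log2 fold changes of -0.16 for Mvk, mevalonate kinase (-0.07 without paclitaxel replicate 3), -0.06 for Acat2, which makes acetoacetyl-CoA, and -0.007 for Idi1, isopentenyl diphosphate isomerase. Idi1 had nearly equal means, 134.7 ± 21.0 CPM (SD, n = 5) after paclitaxel and 135.2 ± 14.7 CPM (SD, n = 5) after vehicle, although paclitaxel replicate 3 stood at 98.7 CPM against 138 to 150.0 CPM in the other paclitaxel libraries.

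The next 3 enzymes join farnesyl units into squalene and close the sterol rings, and 2 of them were below 0 in fold change, with a median log2 fold change of -0.05. Fdft1, squalene synthase, is the first enzyme committed to sterols. It read 123, 132.5, 88.5, 119.5 and 114 CPM after paclitaxel and 135, 122, 112, 116 and 117 CPM after vehicle. Outside paclitaxel replicate 3, the lowest of all, the groups covered nearly the same range. Between the groups the log2 fold change was -0.06 (95% interval from -0.24 to 0.12, SE 0.09, edgeR), and 0.02 without that library. Fdft1 overlaps Ctsb on the genome and had fractional counts in all 10 libraries, which arise where RSEM divides reads among genes, so its level is uncertain. Acat2 also had fractional counts in all 10.

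Sqle, squalene epoxidase, is a rate-limiting step after the mevalonate part. Its levels were 124, 119.8, 76.6, 104 and 105 CPM after paclitaxel and 133, 117, 95.04, 102 and 102 CPM after vehicle. The same paclitaxel library was lowest, and vehicle replicate 1 was highest. The log2 fold change was -0.05 (95% interval from -0.34 to 0.24, SE 0.13), and 0.05 without paclitaxel replicate 3. Lss, lanosterol synthase, which closes the rings, was 69.9 ± 5.85 CPM (SD, n = 5) after paclitaxel and 69.5 ± 7.79 CPM (SD, n = 5) after vehicle, and paclitaxel replicate 3 lay within the range of the others at 71.7 CPM.

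The last 8 enzymes trim lanosterol to cholesterol. Fold changes were below 0 in 7 of them, against 50.9% of all genes tested, with a median log2 fold change of -0.05. Under DESeq2's size factors, upper-quartile scaling or DESeq2 itself, however, Cyp51 and Ebp turned to values just above 0. Under limma-voom with quality weights Cyp51, Ebp and Hsd17b7 turned to values above 0. Cyp51 (chr5:4080674-4104697), lanosterol demethylase, read 182, 181, 118, 166 and 167 CPM after paclitaxel and 194, 169.8, 151, 156 and 147 CPM after vehicle. The 4 other paclitaxel libraries lay inside the vehicle range, while replicate 3 lay far below it. On the log2 scale the difference was -0.004 (95% interval from -0.26 to 0.25, SE 0.12), and 0.09 without that library.

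Nsdhl, a sterol dehydrogenase that removes the groups at carbon 4, gave 31.6, 37.7, 26.3, 37.9 and 39.8 CPM after paclitaxel and 43.0, 43.3, 30.8, 36.0 and 40.5 CPM after vehicle. The lowest value of each group came from its replicate 3, and the ranges overlapped widely. Paclitaxel over vehicle, its log2 fold change was -0.16 (SE 0.11, unadjusted p = 0.152, adjusted p = 0.819, edgeR), and -0.08 without paclitaxel replicate 3. Dhcr7 (chr7:143823167-143848410), which makes cholesterol from 7-dehydrocholesterol, read 48.0, 49.7, 23.1, 49.4 and 41.5 CPM after paclitaxel and 50.3, 53.6, 47.3, 43.4 and 46.4 CPM after vehicle. A single paclitaxel library, replicate 3, held less than any other by a wide gap. This gave a log2 fold change of -0.19 (95% interval from -0.58 to 0.19, SE 0.17), and -0.04 without that library.

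The other 5 of these enzymes had small fold changes. On the log2 scale they were -0.09 for Tm7sf2, a sterol reductase, -0.06 for Msmo1, a methylsterol oxidase, -0.04 for Hsd17b7, a ketosteroid reductase, -0.003 for Ebp, a sterol isomerase, and 0.05 for Sc5d, a desaturase. Tm7sf2 stood at 7.22 CPM in paclitaxel replicate 3 and between 10.9 and 15.7 CPM in the other 9 libraries. Ebp stood at 11.7 CPM there and between 15.8 and 23.2 CPM elsewhere. Without that library the log2 fold changes were 0.06 for Tm7sf2, 0.12 for Ebp, -0.01 for Msmo1, -0.005 for Hsd17b7 and 0.08 for Sc5d. Tm7sf2 shares its locus with Vps51, and Lss with 4930483K19Rik. Neither had fractional counts in any library, so no division of their reads among genes was seen.

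Over all 18 enzymes of synthesis, 16 had a fold change below 0, against 50.9% of all genes tested, with a median log2 fold change of -0.06 and a range from -0.28 to 0.05. DESeq2's size factors and upper-quartile scaling left 14 of 18 below 0, and limma-voom with quality weights left 11 of 18, with a median of -0.01. Without paclitaxel replicate 3 the count was 9 of 18, and it was also 9 of 18 without vehicle replicate 1. Vehicle replicate 1 held the highest value of all 10 libraries for 10 of the 18, against 9.29% of all genes tested.

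SREBP control showed no common direction, with 3 of 5 genes below 0 and a median log2 fold change of -0.02. Srebf2 (chr15:82147269-82205379) encodes SREBP2, the main activator of sterol synthesis. It read 232, 232.5, 179.8, 210.1 and 201 CPM after paclitaxel and 226, 231, 238, 223 and 215 CPM after vehicle. Paclitaxel replicates 3, 4 and 5 were below the vehicle range and replicates 1 and 2 were in its upper part. Between the groups the log2 fold change was -0.10 (SE 0.06, unadjusted p = 0.120, adjusted p = 0.811, edgeR), and -0.05 without paclitaxel replicate 3.

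Srebf1 (chr11:60199084-60224186), whose products act mainly on fatty acid synthesis and which is itself a target of liver X receptors, read 100.3, 112, 127, 103 and 99.5 CPM after paclitaxel and 95.8, 106, 118, 90.3 and 94.8 CPM after vehicle. Paclitaxel replicate 3, lowest for most enzymes, was here the highest of 10. The log2 fold change was 0.10 (95% interval from -0.06 to 0.26, SE 0.08), and 0.04 without that library. Srebf1 and Srebf2 differed in sign, but neither differed beyond its spread, and the difference between them was not tested.

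Insig1, both a sensor of the pathway and a target of SREBP, read 179.5, 204, 170.4, 173.5 and 159 CPM after paclitaxel and 199.8, 186, 168, 170.1 and 160.1 CPM after vehicle. The groups had almost the same range. On the log2 scale the difference was 0.004 (95% interval from -0.14 to 0.15, SE 0.07). Insig2, its paralog, and Scap, the escort, had log2 fold changes of -0.02 and -0.03. Insig2 varied less after paclitaxel, 61.8 ± 1.28 CPM (SD, n = 5), than after vehicle, 62.5 ± 6.68 CPM (SD, n = 5), a difference in spread that was not tested.

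**Figure D3:**
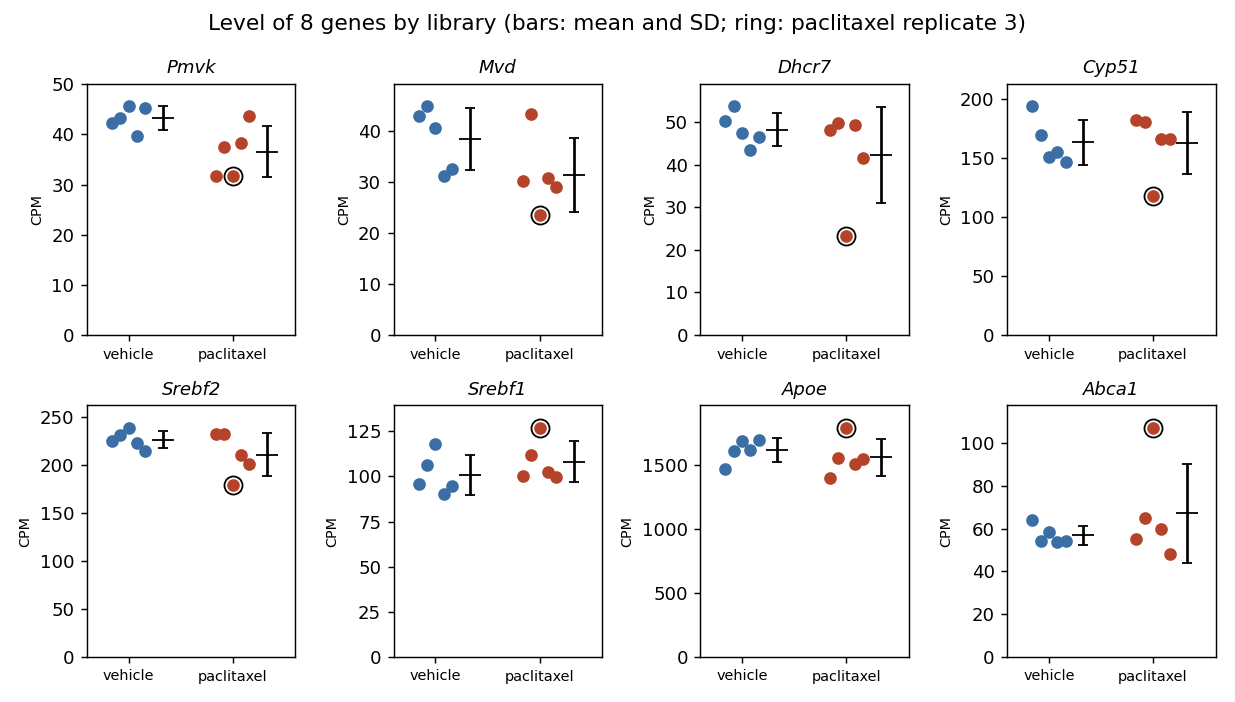
CPM (y axis) of 8 genes in each of the 5 vehicle and 5 paclitaxel libraries, with the mean and SD as bars and paclitaxel replicate 3 ringed. The ringed point is lowest of 10 for synthesis enzymes such as Dhcr7 at 23.1 CPM and highest for Abca1 at 107 CPM, while the other points of the groups overlap.

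The liver X receptors switch on efflux genes when oxysterols rise. Nr1h2 (LXR beta) read 50.4, 67.3, 49.9, 62.8 and 62.4 CPM after paclitaxel and 54.2, 65.7, 69.5, 60.3 and 65.4 CPM after vehicle. Paclitaxel replicates 1 and 3 were the lowest, next to vehicle replicate 1, and the log2 fold change was -0.10 (SE 0.09, adjusted p = 0.848, edgeR), or -0.05 without paclitaxel replicate 3. Nr1h3 (LXR alpha) was the lowest member, at 2.58, 4.07, 3.40, 3.55 and 2.57 CPM after paclitaxel and 3.43, 3.67, 3.52, 3.91 and 3.33 CPM after vehicle. Its interval was wide at this depth, with a log2 fold change of -0.14 (95% interval from -0.58 to 0.31, SE 0.22), and its locus overlaps Acp2.

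Abca1 (chr4:53030789-53159988), the transporter that hands cholesterol to apolipoproteins, had the largest fold change above 0 of the members. It read 55.3, 65.1, 107, 60.02 and 48.3 CPM after paclitaxel and 64.0, 54.2, 58.5, 53.6 and 54.3 CPM after vehicle. Only paclitaxel replicate 3 departed from the rest, and paclitaxel replicate 5 was the lowest of all. Paclitaxel over vehicle, its log2 fold change was 0.24 (SE 0.21, unadjusted p = 0.278, adjusted p = 0.854, edgeR), and 0.007 without replicate 3.

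Apoe (chr7:19696244-19701310) read 1399.9, 1556, 1786, 1505 and 1544 CPM after paclitaxel and 1464, 1611, 1689, 1616 and 1697 CPM after vehicle. The highest and the lowest of 10 were both paclitaxel libraries, replicates 3 and 1. This gave a log2 fold change of -0.05 (95% interval from -0.17 to 0.06, SE 0.06), and -0.10 without paclitaxel replicate 3. Abcg1, which exports sterol to lipid-bearing particles, was 93.5 ± 6.48 CPM (SD, n = 5) after paclitaxel and 95.5 ± 6.01 CPM (SD, n = 5) after vehicle.

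Lrp1 (chr10:127538157-127621148) takes up lipoproteins that carry apolipoprotein E, and its levels were 985, 1113, 941, 947 and 903 CPM after paclitaxel and 919.6, 1017, 962, 1034 and 969 CPM after vehicle. The ranges overlapped nearly in full. Between the groups the log2 fold change was -0.003 (95% interval from -0.11 to 0.11, SE 0.05), with values just above 0 under DESeq2's size factors, upper-quartile scaling and DESeq2. The 4 genes of efflux and uptake together had 3 below 0, or 2 under these 3 settings, with a median log2 fold change of -0.02 against -0.06 for the 18 enzymes of synthesis. The order of these medians turned without paclitaxel replicate 3, at -0.02 for efflux and uptake against -0.0003 for synthesis. It also turned without vehicle replicate 1, at -0.03 against -0.004, and under limma-voom with quality weights, at -0.03 against -0.01. The difference between the sets was not tested.

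Synthesis and efflux were also compared library by library, with a score that is the mean over genes of each gene's log2 CPM less its mean over the 5 vehicle libraries, so that the vehicle scores average 0. The synthesis score was 0.02, 0.06, -0.45, -0.03 and -0.08 in paclitaxel replicates 1 to 5. In vehicle replicates 1 to 5 it was 0.14, 0.06, -0.05, -0.11 and -0.04. The efflux and uptake score was -0.10, 0.05, 0.26, -0.02 and -0.09 after paclitaxel and -0.04, -0.03, 0.04, 0.02 and 0.001 after vehicle. The library with the lowest synthesis score, paclitaxel replicate 3, had the highest score of these 4 efflux and uptake genes. The other 9 libraries lay within 0.14 of 0 on either score. The 4 genes did not move together in paclitaxel replicate 3. Abca1 and Apoe were highest of 10, with log2 gaps of 0.91 and 0.25 to the other 4 paclitaxel libraries. Abcg1, with a gap of 0.11, and Lrp1, with -0.06, lay within the range of the other 9 libraries. The difference of the scores was -0.72 in paclitaxel replicate 3, between -0.01 and 0.12 in the other paclitaxel libraries and between -0.13 and 0.18 in the vehicle libraries. The 8 further efflux and lipoprotein genes of the wider pathway did not share the high score: in paclitaxel replicate 3 they scored -0.09, below the -0.06 to 0.08 of the other 9 libraries, with 3 genes lowest and 1 highest of 10. Their summed level was nevertheless the highest there, at 2633 CPM against 2189 to 2389 CPM.

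**Figure D4:**
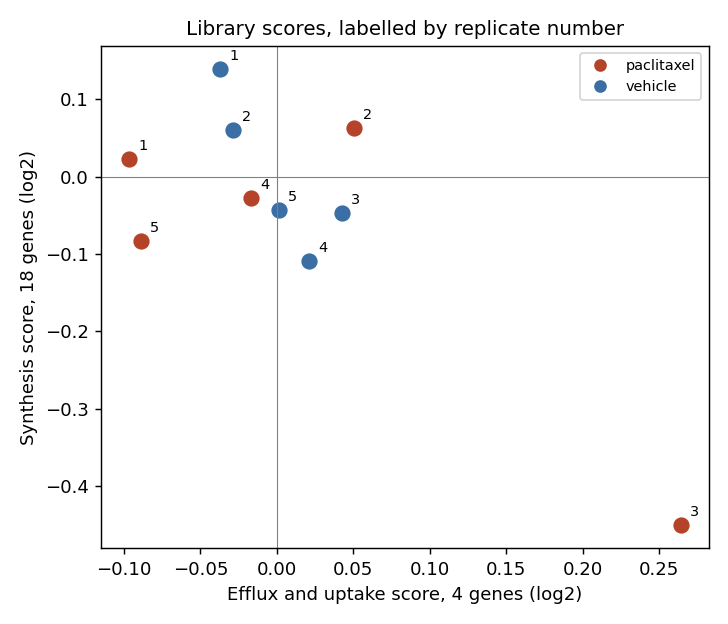
Synthesis score of 18 genes (y axis) against efflux and uptake score of 4 genes (x axis), both in log2 units, for each library labelled by replicate number. Paclitaxel replicate 3 lies alone at the lower right, at 0.26 and -0.45, while the other 9 libraries of the groups mix near 0.

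The genes behind the library that stood apart were nearly the whole synthesis pathway. In paclitaxel replicate 3, 14 of the 18 enzymes had the lowest value of the 10 libraries, 77.8%, where 20.005% of all genes tested were lowest there. The other 4, Acat2, Lss, Hsd17b7 and Sc5d, lay inside the range of the rest. The median log2 gap to the other 4 paclitaxel libraries was -0.47 for the 18 enzymes and 0.004 over all genes tested, and 6.79% of all genes lay at least as far below. As ratios to the mean of the other 4 paclitaxel libraries, Dhcr7 was at 0.491, Tm7sf2 at 0.511, Ebp at 0.570, Sqle at 0.676, Cyp51 at 0.680 and Idi1 at 0.687. Summed over the 18 enzymes, the level was 1360.0 CPM there and between 1659.7 and 2038 CPM in the other 9 libraries.

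Other members were lowest or highest of 10 in that library. Srebf2 was at 0.821 of the other paclitaxel libraries and Npc1 at 0.859, each lowest of 10. In contrast, Abca1 was at 1.87 times their mean, Srebf1 at 1.22 and Apoe at 1.19, each highest of 10. In all, 18 of the 34 members, 52.9%, were lowest there and 3, 8.82%, highest. Of all genes tested, 20.005% were lowest there and 19.7% highest, so the share of members highest was below that over all genes. Within the paclitaxel group the SD on the log2 scale of Dhcr7 was 0.46 with the library and 0.12 without it, and that of Abca1 was 0.44 and 0.18.

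**Figure D5:**
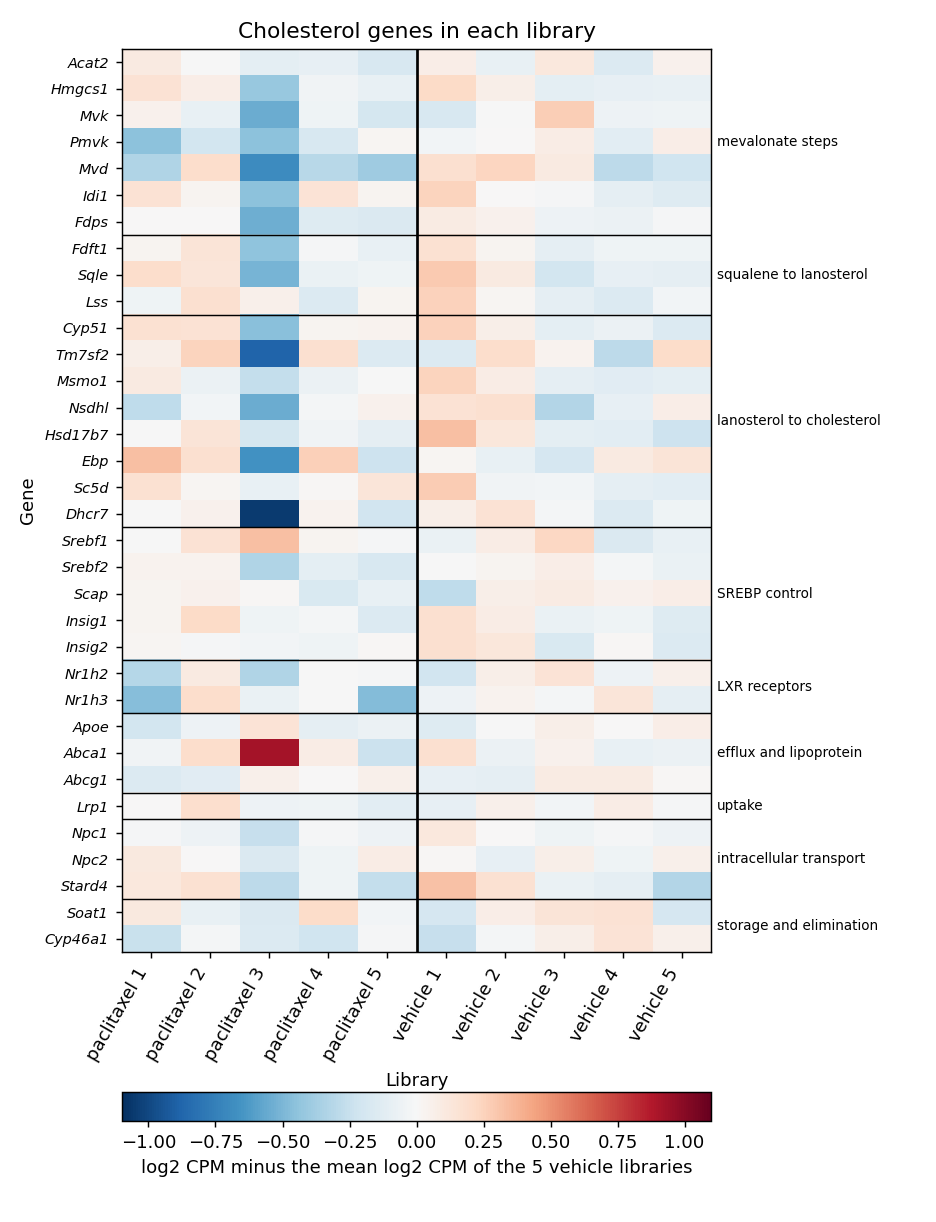
Log2 CPM of each member (rows, by role) in each of the 10 libraries (columns), less the gene's mean over the 5 vehicle libraries. The column of paclitaxel replicate 3 is low through most synthesis rows and high for Abca1, Apoe and Srebf1. Vehicle replicate 1 holds the highest value for 10 of the 18 enzymes, against 9.29% of all genes tested.

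Other gene lists were read in the same library, and their part in the result was not tested. These lists, the glucocorticoid-responsive genes among them, were chosen with earlier results of these data known, so their values are description only. Of all genes tested, 20.005% were lowest there and 19.7% highest. The score of 10 glucocorticoid-responsive genes was 1.73 there and between -0.55 and 0.81 in the other 9 libraries, with 9 of the 10 genes highest of all. Mature oligodendrocyte markers scored -0.25 against -0.09 to 0.12, with 5 of 8 lowest and a summed level of 21253 CPM against 21803 to 25082 CPM. Oligodendrocyte precursor markers scored -0.22 against -0.11 to 0.18. Astrocyte markers scored 0.19 against -0.06 to 0.07, with 4 of 8 highest and 2 lowest, although their summed level, 5246 CPM, lay within the 4921 to 5634 CPM of the others. Endothelial markers scored -0.59 against -0.52 to 0.36, and meningeal and fibroblast markers -0.52 against -0.48 to 0.69. Both summed levels lay within the range of the others. Sensory ganglion markers, 2 of them tested, scored -0.34 against -0.26 to 0.40. Schwann cell and root markers, 2 of them tested, scored within the range of the others but summed to 81.5 CPM against 119 to 171 CPM. Blood markers also scored within range but summed to 62.2 CPM against 97.1 to 276 CPM. Microglial markers scored -0.22, neuron markers -0.01 and lumbar Hox genes -0.08, each within the range of the other libraries. Of the 10 fatty acid genes that SREBP also drives, 8 were lowest there, with a score of -0.19 against -0.07 to 0.07.

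Once imported, lipoprotein cholesterol leaves the lysosome through NPC2 and NPC1. Npc1 read 177, 172, 149.9, 177 and 172 CPM after paclitaxel and 193, 179, 173, 177.5 and 172 CPM after vehicle. Every paclitaxel library was below the vehicle mean, yet 4 of the 5 lay inside the vehicle range. The log2 fold change was -0.08 (95% interval from -0.20 to 0.04, SE 0.06), and -0.04 without paclitaxel replicate 3. Npc1 had fractional counts in 6 libraries. Npc2 had the same mean in both groups, 113.8 CPM, and a log2 fold change of 0.0005, or 0.04 without paclitaxel replicate 3. Stard4, which carries sterol between membranes in the cytosol, read 42.9, 44.5, 32.5, 38.5 and 33.03 CPM after paclitaxel and 49.7, 44.5, 37.8, 37.1 and 31.7 CPM after vehicle. Its highest and lowest values were both vehicle libraries, and the log2 fold change was -0.07 (95% interval from -0.32 to 0.19, SE 0.12), or -0.0098 without paclitaxel replicate 3.

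Surplus cholesterol is stored as ester or turned into a hydroxylated form that can leave the brain and cord. Soat1, which makes the ester, read 30.9, 27.2, 25.7, 33.01 and 28.1 CPM after paclitaxel and 25.3, 30.2, 31.7, 32.1 and 25.2 CPM after vehicle. The groups overlapped nearly in full, with a log2 fold change of 0.006 (95% interval from -0.20 to 0.21, SE 0.10), and 0.05 without paclitaxel replicate 3. Cyp46a1, the neuronal cholesterol hydroxylase, read 48.7, 56.7, 52.0, 49.7 and 57.3 CPM after paclitaxel and 48.4, 56.8, 60.5, 64.0 and 60.1 CPM after vehicle. All 5 paclitaxel libraries were below the vehicle mean, but vehicle replicate 1 was the lowest of all 10. On the log2 scale the difference was -0.13 (SE 0.08, unadjusted p = 0.128, adjusted p = 0.813, edgeR).

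The wider pathway was read through 52 further genes, all of them listed and 51 of them tested. None passed the adjusted threshold, against 0% of all genes tested. An unadjusted p below 0.05 was found for 1, against 6.07% of all genes tested. Fold changes were above 0 in 19 and below 0 in 32, against 50.9% of all genes tested below 0. The median log2 fold change was -0.02. In counts above and below 0, further sterol synthesis genes were 3 and 2, SREBP processing and degradation genes 4 and 4, fatty acid genes driven by SREBP 3 and 7, and lipoprotein uptake genes 4 and 3. Further efflux genes were 3 and 5, carriers of sterol inside the cell 2 and 7, and enzymes of oxysterols and bile acids 0 and 4.

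Mylip, a ubiquitin ligase induced by liver X receptors that degrades lipoprotein receptors, had the lowest p of these. It was 11.9 ± 1.599 CPM (SD, n = 5) after paclitaxel and 9.41 ± 1.76 CPM (SD, n = 5) after vehicle. It stood above the vehicle mean in 5 of 5 paclitaxel libraries, but the groups overlapped. Paclitaxel over vehicle, its log2 fold change was 0.36 (SE 0.15, unadjusted p = 0.0244, adjusted p = 0.792, edgeR). Fasn, fatty acid synthase, was 599.7 ± 68.4 CPM (SD, n = 5) against 655 ± 25.7 CPM (SD, n = 5), a log2 fold change of -0.13 (SE 0.06, adjusted p = 0.80, edgeR). Its SD on the log2 scale was 0.17 after paclitaxel and 0.06 after vehicle. Gramd1a, which moves cholesterol from the plasma membrane to the endoplasmic reticulum, was 72.6 ± 6.80 CPM (SD, n = 5) against 80.0 ± 5.56 CPM (SD, n = 5), a log2 fold change of -0.14 (SE 0.07, adjusted p = 0.80, edgeR). Fold changes of the wider genes are given with all libraries only, so how far they rest on paclitaxel replicate 3 is not shown.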

How the data were processed

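Libraries were Illumina mRNA libraries, per the labels' protocols. STAR, RSEM, edgeR 4.2.0 and mm10 are named by the submitters' processing notes, without parameters. The authors deposited 1 table of RSEM expected counts per gene. Fractional values made up 5.04% of it and were rounded here. Replicate chi-squares per degree of freedom within groups were 1.63 to 6.88, so no library was a copy of another.

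Genes were kept by edgeR's filter (minimum count 10, minimum total 15), scaled by TMM and tested with edgeR 4.0.16's robust quasi-likelihood F test, two-sided, with Benjamini-Hochberg adjustment over all 13287 genes, at 0.05. The depth per library limits low genes. Intervals are 95% confidence intervals of the fold change between the groups, judged from the spread between libraries. CPM are on TMM-scaled totals, with a prior count of 2 for log2 values. Levels per kilobase use the mean length of GENCODE M21 transcripts matched to the table's accessions. Gene positions are RefSeq's on GRCm38, the assembly of mm10. The fit was tested on simulated data.

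Members and lists were chosen with earlier results of these data known. Values in each library are printed for the 2 members of lowest p in each role of 3 or more, for all members of smaller roles, and for Hmgcs1, Fdft1, Sqle, Cyp51, Srebf1, Srebf2, Insig1, Apoe, Abca1 and Lrp1. The wider lists give their counts and the 3 genes of lowest p. Alternatives were other scalings (DESeq2's size factors, upper quartile, library totals), no filter on counts or a floor of 1 CPM in 5 libraries, limma-voom 3.58.1 with and without quality weights, DESeq2 1.42.0, a replicate block, and leaving out each library. The labels do not say whether replicate numbers pair the samples, so the block was run only as an alternative.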

Additional observations from a re-analysis of the deposited data

Results flagged for a closer look

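Groups of 5 libraries were examined for a library far from the other 4, by Dixon's criterion, in 90 cases (each member and each role's score, in each group). In 9 a library stood out, where chance gives about 1 in 20, and 7 of the 9 were paclitaxel replicate 3. The cases share that library and are not independent. Idi1 stood at 98.7 CPM there, with the next paclitaxel library at 138 CPM, and Cyp51 at 118 CPM, with the next at 166 CPM. Npc1 stood at 149.9 CPM, with the next at 172 CPM. Abca1 was far above the others, at 107 CPM against 65.1 CPM in the next library. The score of the 8 enzymes from lanosterol to cholesterol was -0.51 against -0.06 in the next library, and that of all 18 enzymes of synthesis was -0.45 against -0.08. The score of efflux and lipoprotein genes (Apoe, Abca1 and Abcg1) was 0.37 against 0.006.

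The other 2 cases were in vehicle replicate 1. Sc5d stood at 118.8 CPM there, with the next vehicle library at 96.1 CPM, and Scap at 88.4 CPM, with the next at 111 CPM.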

How the results depend on the processing

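No member passed the adjusted threshold under any setting run, and the smallest adjusted p of a member, without vehicle replicate 1, was 0.443. Of the 34 members, 17 kept their direction in every setting. Members with an unadjusted p below 0.05 numbered 1 as reported, 2 under limma-voom with quality weights, 3 under the replicate block (Pmvk, Mvd and Fdps) and 1 to 4 when each library was left out, with 4 without paclitaxel replicate 2. Over all genes the number at an unadjusted p below 0.05 was 806, but 515 without vehicle replicate 3 and 1299 without vehicle replicate 1. DESeq2 and the replicate block each passed 1 gene over all genes, which was no member. Correlations of same-numbered libraries ran from -0.10 to 0.14, and only numbers 2 and 5 matched best with their own. These values cannot decide whether same-numbered samples were paired. Enzymes of synthesis with a fold change below 0 numbered 9 to 17 when each library was left out. Outside those fits, 16 of 306 log2 fold changes of members turned sign, all of them small. DESeq2's size factors gave 0.00081 for Cyp51, 0.0014 for Ebp and 0.0013 for Lrp1, upper-quartile scaling 0.0023, 0.0023 and 0.0028, and DESeq2 0.00061, 0.0074 and 0.0013. Limma-voom gave -0.0013 for Npc2, and with quality weights 0.070 for Idi1, 0.015 for Sqle, 0.066 for Cyp51, 0.0082 for Hsd17b7, 0.041 for Ebp and 0.0017 for Insig2. When each library was left out, 17 members turned sign in some fit. Their log2 fold changes then ran as follows: Hmgcs1 -0.10 to 0.027, Idi1 -0.045 to 0.088, Fdft1 -0.12 to 0.022, Sqle -0.11 to 0.047, Lss -0.031 to 0.083, Cyp51 -0.043 to 0.094, Tm7sf2 -0.18 to 0.061, Msmo1 -0.10 to 0.011, Hsd17b7 -0.11 to 0.053, Ebp -0.087 to 0.12, Insig1 -0.051 to 0.057, Insig2 -0.056 to 0.034, Abcg1 -0.053 to 0.0026, Lrp1 -0.052 to 0.024, Npc2 -0.024 to 0.041, Stard4 -0.15 to 0.028 and Soat1 -0.045 to 0.048. The cause of these turns was not tested. At these depths the 95% interval of Nr1h3 spans -0.58 to 0.31.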
